A study of Homo sapiens with 2 samples.

Results

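Ephrins, their Eph receptors, semaphorins and plexins are families of cell-surface and secreted proteins that steer migrating cells and growing axons, and they also shape vessels and sort cells into compartments. Eph receptors are receptor tyrosine kinases that bind ephrins on neighboring cells. EphA receptors mostly bind ephrin-A ligands, which hold to the membrane by a lipid anchor, and EphB receptors mostly bind ephrin-B ligands, which span the membrane. Semaphorins act through plexins. Class 3 semaphorins are secreted and most need a neuropilin beside the plexin, classes 4, 5 and 6 span the membrane, and class 7 is lipid-anchored. In developing vessels EPHB4 marks veins and its ligand EFNB2 marks arteries.

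The members were the numbered EPHA and EPHB receptors, the numbered EFNA and EFNB ligands, the SEMA3 to SEMA7 genes and the PLXNA, PLXNB, PLXNC and PLXND genes, found by the current symbol of each NCBI Gene number. There were 51 of them among 17397 genes, namely 14 Eph receptors, 8 ephrins, 20 semaphorins and 9 plexins. Expression was measured by RNA-Seq in 1 WT library of H1, a widely used human embryonic stem cell line, and 1 library of H1 cells carrying MEIS2-/-, made with CRISPR/Cas9 and grown up from single cells. Both were taken at day 4 of hematopoietic differentiation, after 2 days with activin A (50 ng/ml) plus BMP4 (40 ng/ml) and a further 2 days with VEGF (40 ng/ml) plus bFGF (50 ng/ml). The labels do not name the clone that was sequenced, and no sample of another clone was analysed here.

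Levels are given as FPKM, the fragments per kilobase of transcript and scaled to the total of mapped fragments, so levels of different genes can be set side by side. A log2 fold change is log2 of MEIS2-/- over WT with 0.1 FPKM added to both, so that the difference of a low gene is understated. Members that reached 1 FPKM in either library were compared, and those that differed by 2-fold or more were counted. With 1 library per genotype there was no replicate error, no test was possible, and the differences are those between these libraries. The depth of the libraries is unknown.

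MEIS2 mRNA, the targeted gene, was at 10.85 FPKM in WT and 3.44 FPKM in MEIS2-/-. Across genes that reached 5 FPKM in each library, the median log2 ratio was 0.12, so a log2 fold change near this size lies at the middle of all genes. Of all 13075 compared genes, 5311 were lower in MEIS2-/- and 7750 higher. Cell type lists also differed between the libraries. Endothelium genes were lower in 13 of the 14 compared, with a summed level of 797.27 FPKM in WT and 428.82 FPKM in MEIS2-/-. The 1 that was higher, SOX17 (141.01 and 264.03 FPKM), made up most of the MEIS2-/- sum and is also on the visceral endoderm list. Hematopoietic genes were lower in 7 of the 7 compared (199.05 and 82.88 FPKM), out of 12 listed. RUNX1, PTPRC, GFI1B, GATA1 and SPI1 stayed below 1 FPKM in both libraries, with differences in both directions. These genes and SOX17 were named after their values were seen. Pluripotency genes were higher in 6 of 6 (547.36 and 1872.79 FPKM) although SOX2 was near 0 in both, and visceral endoderm genes in 10 of 10 (610.08 and 1268.61 FPKM). POU5F1 (285.65 and 1454.14 FPKM) made up most of the pluripotency sum, and APOA1 (401.38 and 879.13 FPKM) most of the visceral endoderm sum. Mesenchyme genes were lower in 6 of 8, neuroectoderm genes in the 2 compared of 7 and hypoxia and glycolysis genes in 10 of 11 (6516.76 and 2319.26 FPKM). Primitive streak and mesoderm genes were lower in 7 of 10, but went both ways past 2-fold. TBXT (2.44 and 10.74 FPKM) and MIXL1 (2.33 and 6.47 FPKM) were higher, and MESP1 (8.12 and 3.09 FPKM) and TBX6 (5.38 and 2.03 FPKM) lower. In bulk RNA, fewer cells of a type and less RNA per cell cannot be told apart, and the part of these lists in the values of the guidance genes was not tested.

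The EPHB4 and EFNB2 pair, which marks veins and arteries in developing vessels, differed little between the libraries. Which cells of the culture expressed the pair cannot be told from bulk RNA. EPHB4 (NCBI Gene number 2050) was at 81.38 FPKM in WT and 92.38 FPKM in MEIS2-/-, a log2 fold change of 0.18. EFNB2 (number 1948) was at 14.04 FPKM and 14.61 FPKM, a log2 fold change of 0.06. Both changes lie within the middle 50% of all compared genes, which runs from -0.25 to 0.45. With the median log2 ratio of all genes set to 0, EPHB4 was at 0.07 and EFNB2 turned to -0.06, so no direction is given for EFNB2. EPHB4 ranked 2 among the 51 members in WT cells and 1 in MEIS2-/- cells. The ratio of EPHB4 to EFNB2 was 5.8 in WT and 6.32 in MEIS2-/-.

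The 250 bases before the annotated start of EPHB4 and EFNB2 are shown because these genes are the vascular pair, and those of EPHA2 and SEMA3F because these members had the widest differences in FPKM. They come from RefSeq on GRCh38.p14, where 46 of the 51 members have an entry, and each is written 5′ to 3′ in the direction of the gene and ends at the base before its start. For SEMA3F the most upstream of 3 listed starts was taken. Capitals mark TGACAG, the core letters bound by MEIS proteins, on either strand. GATAA, the core of GATA sites, and ACGTG, the core of hypoxia response elements, were searched in the same way and have no match in these windows.
EPHB4, chr7:100827524-100827773, minus strand: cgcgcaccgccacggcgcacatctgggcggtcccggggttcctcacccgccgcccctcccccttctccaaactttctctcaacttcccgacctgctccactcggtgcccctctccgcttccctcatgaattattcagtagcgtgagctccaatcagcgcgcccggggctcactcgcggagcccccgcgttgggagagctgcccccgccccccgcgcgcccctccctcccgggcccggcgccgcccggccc
EFNB2, chr13:106535663-106535912, minus strand: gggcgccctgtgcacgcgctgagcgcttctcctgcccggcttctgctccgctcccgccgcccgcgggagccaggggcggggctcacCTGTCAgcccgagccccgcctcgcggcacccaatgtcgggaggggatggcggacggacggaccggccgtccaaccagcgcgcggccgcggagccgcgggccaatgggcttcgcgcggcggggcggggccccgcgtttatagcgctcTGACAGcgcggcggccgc
EPHA2, chr1:16156070-16156319, minus strand: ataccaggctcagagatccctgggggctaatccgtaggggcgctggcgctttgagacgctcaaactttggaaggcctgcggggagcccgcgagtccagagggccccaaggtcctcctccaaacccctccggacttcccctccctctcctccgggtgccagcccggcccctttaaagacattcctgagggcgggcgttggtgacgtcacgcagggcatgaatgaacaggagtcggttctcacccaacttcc
SEMA3F, chr3:50154808-50155057, plus strand: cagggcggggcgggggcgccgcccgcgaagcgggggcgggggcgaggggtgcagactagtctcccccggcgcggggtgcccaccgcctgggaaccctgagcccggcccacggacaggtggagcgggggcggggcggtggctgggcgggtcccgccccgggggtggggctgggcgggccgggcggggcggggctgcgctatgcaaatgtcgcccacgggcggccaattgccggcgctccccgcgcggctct

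EFNB2 held 2 TGACAG matches, 1 beginning 18 bases before the start and 1 on the opposite strand beginning 164 bases before it. It was the only 1 of the 73 member windows with 2 or more, and a similar share of the windows of all genes had as many (413 of 35116, 1.18%). At least 1 match was found in 8 of the 73 member windows (11.0%), those of 7 genes, and in 13.0% of all windows. GATAA was found in 13.7% of member windows and 20.4% of all windows, and ACGTG in 19.2% and 18.5%. Besides EFNB2, the genes with a TGACAG match were SEMA3E (in 1 of its 2 windows, log2 fold change -1.22), PLXNA2 (-0.58), PLXNB2 (-0.37), SEMA6D (in only some of its windows, -0.07), SEMA4A (likewise, 0.60) and PLXNA4, which was below the filter. Of these, SEMA3E was past 2-fold, and the other members past 2-fold that have a window had no match. A match is only a run of letters, and no binding was measured.

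Ephrin-B ligands other than EFNB2 were lower in MEIS2-/- cells, while EphB receptors together were not. EFNB1, an X-linked ligand that takes part in sorting cells at tissue boundaries, was at 40.76 FPKM in WT and 18.78 FPKM in MEIS2-/-, a log2 fold change of -1.11. EFNB3, known best from the midline of the nervous system, was at 21.14 FPKM and 9.2 FPKM, a log2 fold change of -1.19. EFNB2 therefore made up 18.5% of the summed ephrin-B level in WT and 34.3% in MEIS2-/-, and EFNB1 was the highest of the ligands in both.

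Among the EphB receptors, EPHB3, which positions cells in the intestinal crypt, was at 27.56 FPKM in WT and 31.58 FPKM in MEIS2-/-. EPHB2, a receptor close to EPHB3 in function, was at 11.29 FPKM and 6.07 FPKM, a log2 fold change of -0.88. EPHB6, whose kinase domain is inactive, was at 8.18 FPKM and 12.79 FPKM. These differences went in both directions and stayed under 2-fold. EPHB1 passed 2-fold upward, but at a low level, from 0.54 FPKM to 1.32 FPKM. EPHB4 alone held 63.1% of the summed EphB level in WT and 64.1% in MEIS2-/-. The summed EphB level was 128.95 FPKM in WT and 144.14 FPKM in MEIS2-/-, and the summed ephrin-B level 75.94 FPKM and 42.59 FPKM. The receptor to ligand ratio of these sums was 1.7 in WT cells and 3.38 in MEIS2-/- cells.

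**Figure D1:**
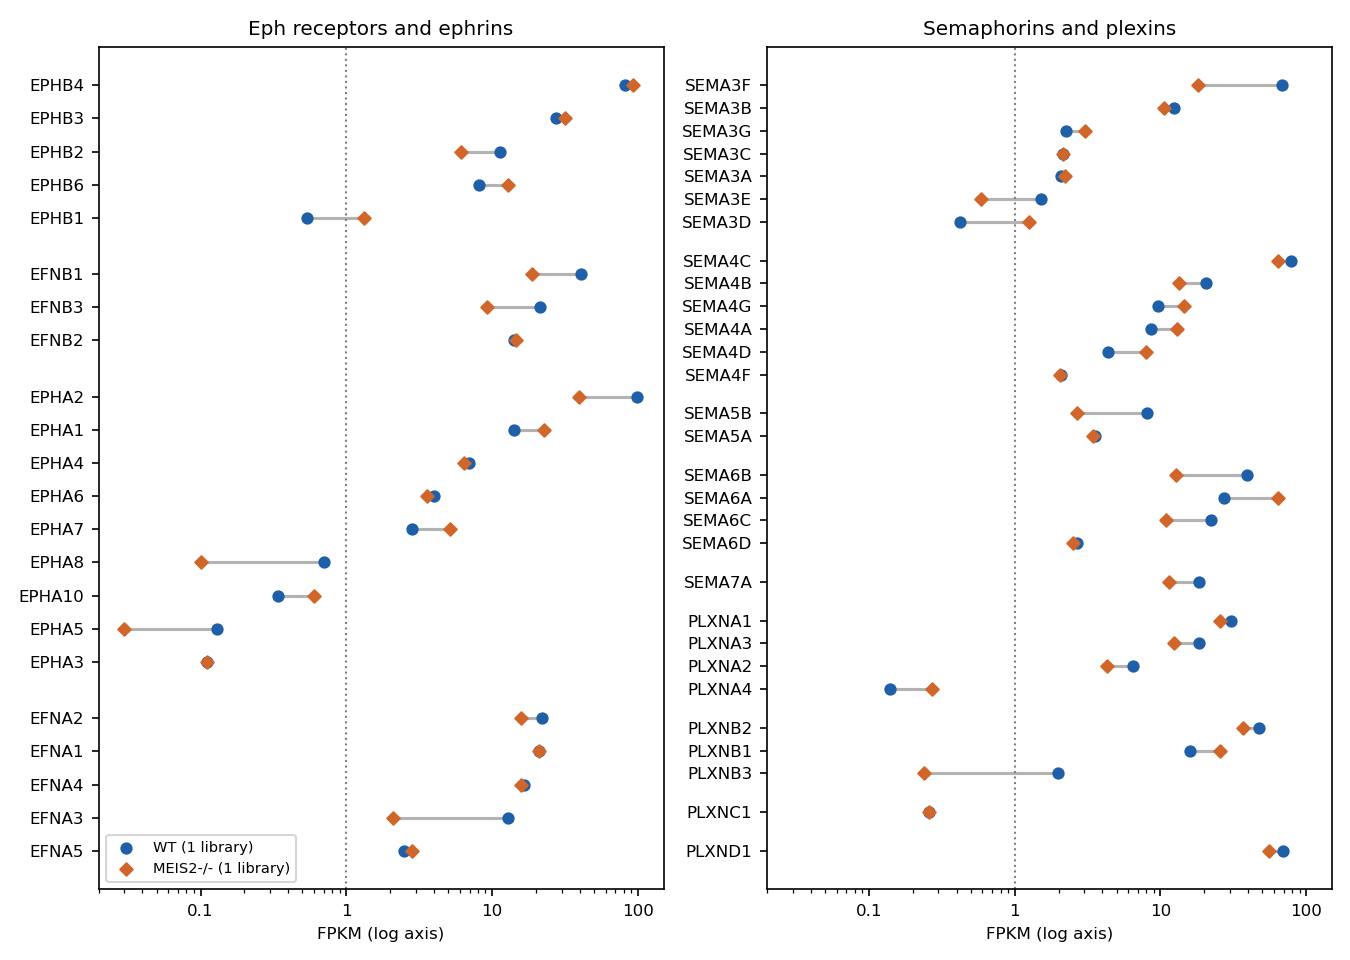
FPKM on a log axis for all 51 members, grouped by family and ordered by WT level, with circles for the WT library, diamonds for the MEIS2-/- library and a dotted line at 1 FPKM. EPHB4 and EFNB2 have nearly overlapping points, EPHA2, EFNA3, SEMA3F and SEMA6B lie far lower in MEIS2-/-, and SEMA6A lies higher. Each point is 1 library, so there are no error bars.

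The difference in EphA receptors lay mainly in EPHA2, a receptor found in many epithelial cells and in early embryonic cells. EPHA2 was the highest of all members in WT cells, at 98.69 FPKM, and was at 39.17 FPKM in MEIS2-/-, a log2 fold change of -1.33. EPHA1, the founding member of the Eph family, went the other way, with 14.07 FPKM in WT against 22.73 FPKM, which is 0.69 as a log2 fold change. The share of EPHA2 in the summed EphA level was 77.2% in WT and 50.3% in MEIS2-/-, and that of EPHA1 11.0% and 29.2%. EPHA4, which can bind ligands of both classes, was at 6.94 FPKM in WT and 6.37 FPKM in MEIS2-/-. EPHA6 was at 3.99 FPKM and 3.56 FPKM. EPHA7, known from the developing brain, was at 2.84 FPKM and 5.16 FPKM. EPHA3, EPHA5, EPHA8 and EPHA10 stayed below 1 FPKM in both libraries. EPHA8 had the widest gap of these, at 0.70 FPKM in WT and 0.10 FPKM in MEIS2-/-.

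Of the ephrin-A ligands, EFNA3 alone passed 2-fold, while 11008 of all 13075 compared genes stayed under it. It was at 12.94 FPKM in WT and 2.09 FPKM in MEIS2-/-, a log2 fold change of -2.57. EFNA1, a main ligand of EPHA2, was at 20.81 FPKM and 21.05 FPKM. EFNA4 was at 16.57 FPKM and 15.65 FPKM. EFNA4, EFNA3 and EFNA1 are consecutive protein-coding genes on chromosome 1, so the gene in the middle differed while those on either side hardly did. RefSeq also lists a read-through gene, EFNA4-EFNA3, and how its reads were shared between these genes is not given in the sources used here. EFNA2, on chromosome 19, was at 21.88 FPKM and 15.71 FPKM, and EFNA5 at 2.49 FPKM and 2.84 FPKM. The summed ephrin-A level was 74.69 FPKM in WT and 57.34 FPKM in MEIS2-/-, and the summed EphA level 127.81 FPKM and 77.83 FPKM. The EphA to ephrin-A ratio was 1.71 in WT cells and 1.36 in MEIS2-/- cells, and the ratio of EPHA2 to EFNA1 was 4.74 and 1.86. The receptor to ligand ratio was thus lower in MEIS2-/- cells in the A class and higher in the B class. The direction of EFNA1 turned with rescaling to a median of 0, to -0.10.

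**Figure D2:**
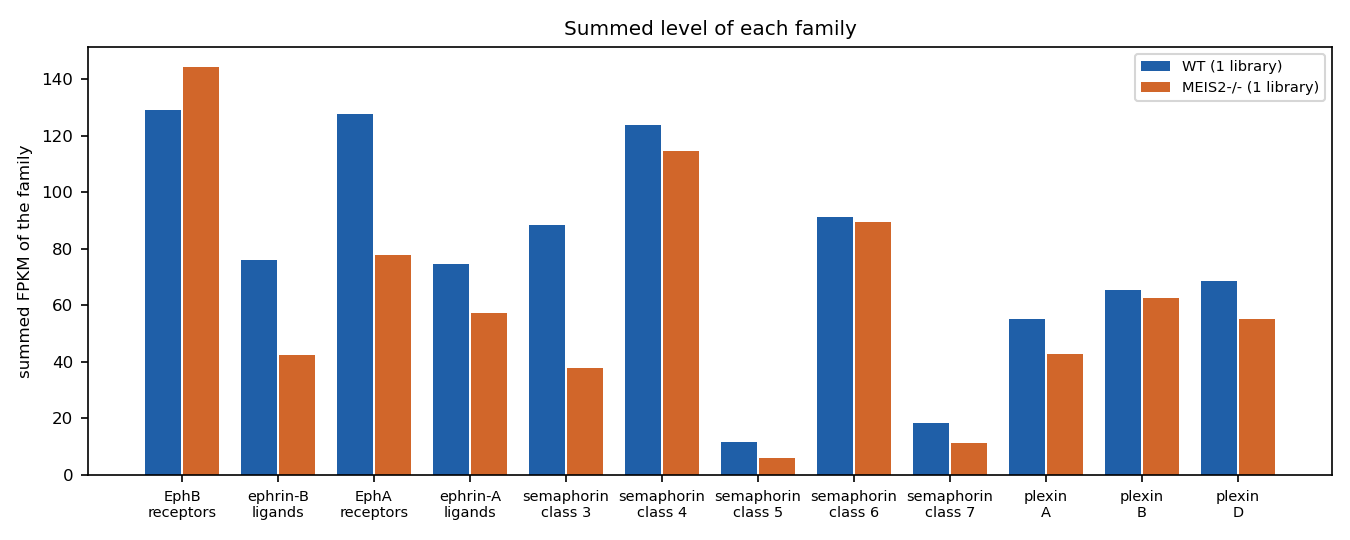
Summed FPKM of each family in the WT library and the MEIS2-/- library, with bars starting at 0. EphA receptors, ephrin-B ligands and class 3 semaphorins show the widest gaps, EphB receptors are slightly higher in MEIS2-/-, and class 6 semaphorins are nearly level (91.30 and 89.58 FPKM). PLXNC1, at 0.26 FPKM in both, is not drawn.

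The class 3 semaphorins, which are secreted, had the lowest ratio of summed levels, 88.41 FPKM in WT and 37.80 FPKM in MEIS2-/-. Most of this was SEMA3F, a repellent that signals through NRP2 and counters the growth of vessels. SEMA3F was at 67.62 FPKM in WT and 18.07 FPKM in MEIS2-/-, a log2 fold change of -1.90, and made up 76.5% of the class 3 sum in WT and 47.8% in MEIS2-/-. SEMA3B, which lies near SEMA3F on chromosome 3 with 3 protein-coding genes between them, was at 12.40 FPKM and 10.49 FPKM. SEMA3A, the classical axon repellent, was at 2.08 FPKM and 2.21 FPKM. SEMA3C, which guides cells of the cardiac outflow tract, was at 2.13 FPKM and 2.16 FPKM. SEMA3G, known from vessels, was at 2.25 FPKM and 3.02 FPKM. These members stayed under 2-fold, and the directions of SEMA3A and SEMA3C turned with rescaling. SEMA3E and SEMA3D flank SEMA3A on chromosome 7. SEMA3E, a ligand that binds PLXND1 without a neuropilin, was at 1.51 FPKM in WT and 0.59 FPKM in MEIS2-/-, a log2 fold change of -1.22. SEMA3D was at 0.42 FPKM and 1.26 FPKM, a log2 fold change of 1.39. Both are low genes, and with a pseudocount of 1 FPKM in place of 0.1 neither passed 2-fold.

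The class 6 semaphorins, which bind class A plexins, traded places while their sum barely differed. SEMA6A was at 27.38 FPKM in WT and 63.48 FPKM in MEIS2-/-, a log2 fold change of 1.21. SEMA6B was at 38.98 FPKM and 12.73 FPKM, a log2 fold change of -1.61. SEMA6C was at 22.27 FPKM and 10.84 FPKM, a log2 fold change of -1.03, just past 2-fold. SEMA6B was the highest of the class in WT cells, and SEMA6A, with 70.9% of the class sum, was the highest in MEIS2-/- cells. SEMA6D, which acts in heart formation, was at 2.67 FPKM and 2.53 FPKM. SEMA6A was the only member at 5 FPKM or more that was at least 2-fold higher, and it made up 38.7% of the summed difference of the members that were higher.

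The class 4 semaphorins, ligands of class B plexins and of immune receptors, all stayed under 2-fold, as did 11008 of all 13075 compared genes. SEMA4C, a ligand of PLXNB2, was the highest of them, at 78.39 FPKM in WT and 63.58 FPKM in MEIS2-/-. SEMA4B was at 20.61 FPKM and 13.43 FPKM. SEMA4G was at 9.64 FPKM and 14.45 FPKM. SEMA4A was at 8.55 FPKM in WT and 13.05 FPKM in MEIS2-/-, and SEMA4D, the ligand of PLXNB1, at 4.38 FPKM and 8.01 FPKM, a log2 fold change of 0.86. SEMA4F was at 2.07 FPKM and 2.05 FPKM. The higher members of the class were therefore lower in MEIS2-/- cells, and the sum was 123.64 FPKM against 114.57 FPKM. In class 5, whose members carry thrombospondin repeats, SEMA5B was at 8.12 FPKM in WT and 2.66 FPKM in MEIS2-/-, a log2 fold change of -1.57, and SEMA5A at 3.53 FPKM and 3.46 FPKM. SEMA7A was at 18.23 FPKM and 11.49 FPKM, a log2 fold change of -0.66, while its plexin receptor PLXNC1 was at 0.26 FPKM in both libraries. Other binding partners of semaphorins were well above that. ITGB1, on the list of these partners and given here after its values were seen, was at 229.74 FPKM in WT and 164.72 FPKM in MEIS2-/-.

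Of the 7 compared plexins, 1 was at least 2-fold lower and none was higher. Among all compared genes 7.97% were lower by that much and 7.84% higher. PLXND1, the receptor of SEMA3E in endothelium, was the highest plexin, at 68.69 FPKM in WT and 55.19 FPKM in MEIS2-/-, a log2 fold change of -0.32. PLXNB2 was at 47.33 FPKM and 36.58 FPKM. PLXNB1 was at 16.02 FPKM and 25.65 FPKM, a log2 fold change of 0.68, the only plexin that was compared and higher in MEIS2-/-, and its ligand SEMA4D was higher as well. PLXNA1 was at 30.28 FPKM in WT and 25.73 FPKM in MEIS2-/-. PLXNA3, on the X chromosome, was at 18.27 FPKM and 12.36 FPKM. PLXNA2 was at 6.5 FPKM and 4.31 FPKM. All 3 compared class A plexins, the partners of class 3 and class 6 semaphorins, were lower, and PLXNA4 was at 0.14 FPKM and 0.27 FPKM, below the filter. PLXNB3, a receptor of SEMA5A, was at 1.99 FPKM in WT and 0.24 FPKM in MEIS2-/-, a log2 fold change of -2.62. This was the lowest log2 fold change among the compared members, but at a low level, and it was -1.27 with a pseudocount of 1 FPKM. The ratio of the class 3 semaphorin sum to the class A plexin sum was 1.6 in WT cells and 0.886 in MEIS2-/- cells.

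Of the 51 members, 45 (88.2%) reached 1 FPKM in at least 1 library, against 75.2% of all listed genes. Of these 45, 10 (22.2%) were lower by 2-fold or more in MEIS2-/- cells, where 7.97% of the 13075 compared genes were, and 3 (6.67%) were at least 2-fold higher, where 7.84% of the compared genes were. The filter can favor members that differ, since 4 members reached it in 1 library only and all 4 were past 2-fold. Without a filter, 11 of 51 members (21.6%) were at least 2-fold lower and 3 (5.88%) higher, against 8.71% and 9.01% of the 17397 genes. The median log2 fold change of the 45 was -0.12, against 0.12 for all compared genes. No test stands behind these counts.

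Of the 10 members at least 2-fold lower, 8 were ligands, and ligands were 28 of the 45 compared members. Of 28 compared ligands, 8 were at least 2-fold lower (EFNA3, EFNB1, EFNB3, SEMA3E, SEMA3F, SEMA5B, SEMA6B and SEMA6C) and 2 were higher (SEMA3D and SEMA6A). Of 17 compared receptors, 2 were lower (EPHA2 and PLXNB3) and 1 was higher (EPHB1). Among all compared genes 7.97% were at least 2-fold lower and 7.84% higher. Counting differences of any size, 17 of the 28 ligands and 10 of the 17 receptors were lower, as were 5311 of all 13075 compared genes. The median log2 fold change was -0.08 for ligands and -0.16 for receptors, so the medians do not set the ligands lower. The summed ligand level was 483.86 FPKM in WT and 359.49 FPKM in MEIS2-/-, and the summed receptor level 446.24 FPKM and 382.56 FPKM. SEMA3F and EPHA2 together made up 38.8% of the summed difference of the members that were lower. Whether ligands and receptors differ in this respect was not tested.

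**Figure D3:**
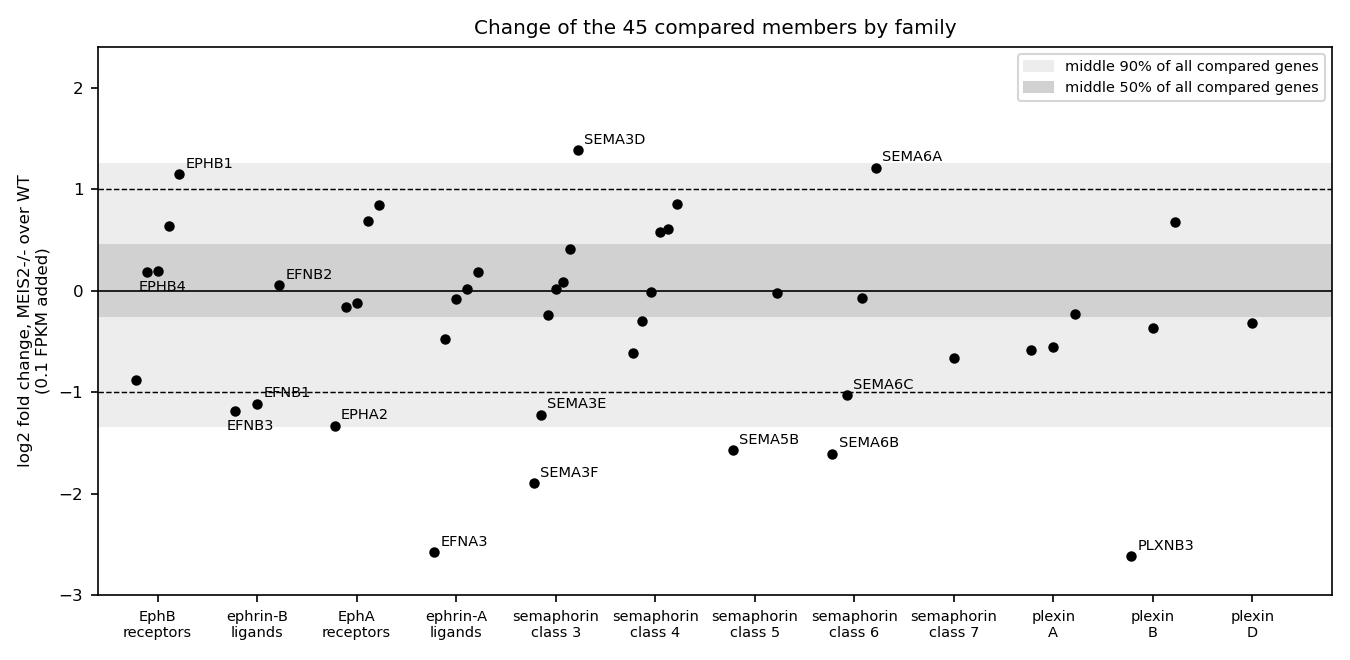
Log2 fold change (MEIS2-/- over WT, 0.1 FPKM added) of the 45 compared members by family, 1 point per gene, with bands for the middle 50% and middle 90% of all 13075 compared genes and dashed lines at 2-fold. EFNA3, PLXNB3, SEMA3F, SEMA6B and SEMA5B lie below the middle 90% (-1.33 to 1.25), EPHA2 lies at its lower edge and SEMA3D lies above it, while EPHB4 and EFNB2 lie in the middle 50%.

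The neuropilins, the co-receptors that class 3 semaphorins share with VEGF, were lower in MEIS2-/- cells. NRP1 was at 30.89 FPKM in WT and 10.75 FPKM in MEIS2-/-, a log2 fold change of -1.51. NRP2, the partner of SEMA3F, was at 43.77 FPKM and 22.23 FPKM, a log2 fold change of -0.97, which became -1.09 with rescaling and so passed 2-fold. KDR, the main VEGF receptor of endothelium and a partner of plexin A1 for SEMA6D, was at 323.77 FPKM and 61.98 FPKM. L1CAM, an adhesion molecule that associates with NRP1, was at 30.85 FPKM and 9.94 FPKM. In the list of 12 semaphorin co-receptors and binding partners, 10 were compared, with a median log2 fold change of -0.73. Of these, 4 were at least 2-fold lower and 1 higher, where 7.97% and 7.84% of all compared genes were. CD72 and MST1R, named after their values were seen, were the other lower gene (2.75 and 0.77 FPKM) and the higher gene (0.54 and 1.31 FPKM). KDR is also an endothelium marker, and that list was lower as well.

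Lists of effectors, most of which act inside the cell, had medians near the 0.12 of all compared genes. Their counts past 2-fold stand beside 7.97% of all compared genes lower and 7.84% higher. Of 24 plexin and semaphorin effectors, 3 were at least 2-fold lower and none was higher, with a median of 0.07, which turned to -0.04 with rescaling. RRAS, a small GTPase that plexins inactivate, was the lowest of them relative to WT, at 107.83 FPKM and 23.37 FPKM. MICAL2, an enzyme that oxidizes actin, was at 13.67 FPKM in WT and 5.94 FPKM in MEIS2-/-, and DPYSL4, of the collapsin response mediator family, at 10.26 FPKM and 3.98 FPKM. Of 27 Eph and ephrin effectors, 3 were at least 2-fold lower and 1 was higher, with a median of 0.17. NGEF, which encodes ephexin, an exchange factor bound by EphA receptors, was the higher gene, at 2.04 FPKM and 7.11 FPKM. SH2D3C, an adaptor that binds Eph receptors, was at 6.59 FPKM and 2.04 FPKM. VAV3 (3.47 and 0.88 FPKM) and GRIP2 (2.37 and 0.80 FPKM), named after their values were seen, were the other lower genes.

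Genes that mark arteries and veins were compared beside EPHB4 and EFNB2. Of 13 arterial genes, 10 were compared, 3 of them at least 2-fold lower and 1 higher, with a median log2 fold change of -0.68. The shares over all compared genes were 7.97% lower and 7.84% higher. NOTCH1 was at 25.55 FPKM in WT and 10.85 FPKM in MEIS2-/-, JAG2, a Notch ligand, at 9.89 FPKM and 3.38 FPKM, and ACVRL1, a receptor for BMP9 in endothelium, at 24.05 FPKM and 9.25 FPKM. CXCR4, the receptor of CXCL12, was at 24.13 FPKM and 50.90 FPKM, which was just short of 2-fold with rescaling (0.96). DLL4, the Notch ligand of arteries, was at 0.16 FPKM and 0.25 FPKM. Of 5 venous genes, 3 (FLT4, TEK and APLNR) were compared and all 3 were lower, with FLT4 at 6.67 FPKM and 2.03 FPKM. TEK is also on the endothelium list, and the paper uses APLNR as a marker of lateral mesoderm. NR2F2, a factor of venous identity, was at 0.98 FPKM and 0.99 FPKM. EPHB4 and EFNB2 thus had similar levels in both libraries. Of the compared genes on these lists, 9 of 10 arterial and 3 of 3 venous were lower in MEIS2-/-, as were 5311 of all 13075 compared genes. Whether the pair differs from these lists was not tested. DLL4 and NR2F2 stayed below 1 FPKM in both libraries, while other genes of these lists, such as GJA4 (19.59 and 13.43 FPKM), HEY2 (16.88 and 9.31 FPKM) and APLNR (223.49 and 132.54 FPKM), given here after their values were seen, were well above it.

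Reads of overlapping genes could enter some of these values, since the strand used in counting is not given in the sources used here. RefSeq lists named protein-coding genes that overlap members, namely SLC12A9 at EPHB4, SECISBP2 at SEMA4D, MRPL43 at SEMA4G, LAGE3 at PLXNA3 and CEP83 at PLXNC1, and a second read-through gene, ADAM15-EFNA4, at EFNA4. Genes named as antisense lie at EPHA1, EPHA2, EPHA5, EFNA4, SEMA3B, SEMA3F, SEMA5A, SEMA6A, PLXNA4, PLXNB3 and PLXNC1, and genes without a family name, microRNAs and pseudogenes overlap further members. Their part in the values was not tested.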

How the data were processed

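RNA-Seq was compared between 1 WT and 1 MEIS2-/- library at day 4. What the authors deposited was 1 FPKM value for each gene in each library, with 2 decimals. BGI ran the RNA-Seq, and the submitters' processing notes name BWA, Bowtie, RSEM and hg19 without roles or versions. Of 17397 genes, 17365 were matched to a RefSeq symbol by NCBI Gene number. No counts were given, and low values of single-transcript genes did not fall on whole-read steps (agreement of 0.097 and 0.109 where 1 is complete), so no counting error is given.

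Log2 fold changes used a pseudocount of 0.1 FPKM and the values as deposited. With 1 library per genotype there is no test. The members, gene lists and motifs were chosen with earlier results of these data known. All members were named, and of the lists only genes that reached 5 FPKM in either library and were past 2-fold, plus NRP1 and NRP2, with exceptions said so in place. Artery and vein genes and MEIS2 were also given, as marker values. The alternatives used a pseudocount of 1 or 0.01, no filter or a minimum of 5 FPKM, a threshold of 1.5-fold or 4-fold, and rescaling to a median log2 ratio of 0 or by an unweighted trimmed mean of M values (TMM), which left out 30% of the ratios and 5% of the levels at either end. The computation was tested on planted changes. Python 3.11.15, numpy 2.4.6, pandas 2.3.3 and matplotlib 3.10.9 were used.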

Additional observations from a re-analysis of the deposited data

How the results depend on the processing

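The count of 10 lower members became 8 of 45 with a pseudocount of 1 FPKM (all compared genes 5.3% lower). A filter at 5 FPKM left 33 members, of which 8 were lower (6.41%). The count was 13 of 45 at 1.5-fold (14.5%) and 2 at 4-fold (EFNA3 and PLXNB3, 1.84%). The count of 3 higher members became 1 (SEMA6A) with a pseudocount of 1 FPKM (4.76% of all compared genes higher) and 1 of 33 with a filter at 5 FPKM (5.94%). It was 9 of 45 at 1.5-fold (2353 of 13075 genes) and 0 at 4-fold (1.48%). Both scalings kept the same 10 lower and 3 higher members, with 9.15% and 9.02% of all compared genes lower and 6.37% and 6.52% higher. The log2 ratio of the summed class 5 semaphorins passed 2-fold with scaling, at -1.04 with a median of 0 and -1.03 with TMM. No member past 2-fold changed sign under these alternatives. A pseudocount of 1 FPKM took SEMA3E (-0.66), SEMA6C (-0.97), EPHB1 (0.59) and SEMA3D (0.67) under 2-fold. The scalings shift all log2 ratios by -0.12 and -0.10, which turned the sign of EFNA1, EFNB2, SEMA3A and SEMA3C. No paired analysis was possible because each genotype has 1 library, and no library could be left out.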

Other observations

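Other guidance families, the slits with their ROBO receptors, the netrins with DCC, neogenin and the UNC5 receptors, and the RGM and FLRT proteins, differed little as a group between the libraries. Of 26 such genes 16 were compared, with 8 lower and 8 higher in MEIS2-/- cells. Of all 13075 compared genes, 5311 were lower and 7750 higher. Their median log2 fold change was 0.05, which turned to -0.06 with rescaling. Past 2-fold, 2 were lower and 1 was higher, where 7.97% and 7.84% of all compared genes were. NTN5 (1.70 and 0.64 FPKM) and ROBO3 (1.99 and 0.86 FPKM) were at least 2-fold lower and UNC5D (0.69 and 1.69 FPKM) was higher. These genes, named after their values were seen, are all below 2 FPKM. FLRT3, which binds UNC5 receptors, was the highest of the list in MEIS2-/- cells, at 25.20 FPKM in WT and 42.36 FPKM in MEIS2-/-, and UNC5B, a netrin receptor of endothelium, the highest in WT cells, at 27.82 FPKM and 17.95 FPKM. Both were also picked after their values were seen and stayed under 2-fold.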
